A study of Ovis aries with 16 samples.

Results

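Wnt proteins are secreted signals, and the genes described here encode those ligands, the receptors that bind them and the proteins that tune them. Members were the rows of the deposited gene table whose symbol belongs to the WNT, FZD, SFRP, DKK, RSPO or LGR families, or is LRP5, LRP6, FRZB, WIF1, NOTUM, AXIN2, ZNRF3 or RNF43. The rule found 50 of 28524 genes and used no measured value. They comprise 18 ligands, 12 receptors and co-receptors, 7 R-spondins and R-spondin receptors, 10 secreted inhibitors and 3 feedback regulators.

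In canonical Wnt signalling a ligand joins a Frizzled receptor (FZD genes) to the co-receptor LRP5 or LRP6, and β-catenin then accumulates and acts with TCF and LEF factors on transcription. Secreted Frizzled-related proteins (SFRP genes and FRZB) and WIF1 bind ligands, Dickkopf proteins such as DKK1 bind the co-receptors, and NOTUM removes the lipid that ligands need. The ubiquitin ligases ZNRF3 and RNF43 clear Frizzled receptors from the cell surface, and R-spondins bound to LGR4, LGR5 or LGR6 prevent this. In fat, canonical signalling is known for holding precursor cells back from becoming adipocytes, with WNT10B as the best studied ligand. WNT5A and WNT11 are known mainly for signalling without β-catenin.

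The fat came from female sheep whose mothers were injected under the skin each day with bisphenol A (BPA), an industrial chemical that can act on oestrogen receptors, at 0.5 mg/kg, or with the corn oil vehicle alone. Injections began on gestation day 30 and ended on day 90, with term at about 147 days. All ewes had the same maintenance diet after weaning, had their cycles synchronized with prostaglandin F2α injections 11 days apart, and gave tissue 24 hours after the last one, at about 21 months of age. Subcutaneous fat was sternal, and visceral fat was mesenteric, from around the rumen. The 4 groups of 4 libraries are subcutaneous control, subcutaneous BPA, visceral control and visceral BPA, and libraries are named here by the number that opens their title. The labels do not say outright that each library is a separate ewe, so p-values measure the spread between these libraries, part of which may be technical.

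Totals were 3.05 to 6.22 M counts in subcutaneous and 6.77 to 14.31 M in visceral libraries, and 3.05 to 4.83 M in subcutaneous BPA alone, so low genes are measured less well there. Adipocyte markers were present in every library, with 9669.5 to 27329 CPM summed over 7 genes, where CPM are counts scaled to library size. Visceral BPA library 977 stood apart from the rest on the second principal component of all genes (-95.63, against -18.88 to 26.5 in the other 15). It also had the highest sum of 9 mesothelial markers, 343 CPM, against 31.6 to 131 in the other visceral libraries and 1.85 to 9.34 in subcutaneous libraries. The mesothelium is the cell sheet that covers visceral organs. Subcutaneous controls 902 and 924 stood apart on the third component, at 53.54 and 51.89 against -42.25 to 10.57. Where 1 of these libraries decides a value, the value or call without it is given beside many of the results, though not beside all.

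Of the 50 members, 33 had enough counts to be tested in at least 1 comparison and 17 in none. Those tested were 8 of the 18 ligands, 11 of the 12 receptors, 4 of the 7 R-spondin axis genes, 7 of the 10 secreted inhibitors and all 3 feedback regulators. WNT1, WNT3A, WNT8A and RSPO4 had 0 counts in all 16 libraries. A count of 0 over a group allows up to 0.134 CPM in subcutaneous control, 0.181 in subcutaneous BPA, 0.0628 in visceral control and 0.0755 in visceral BPA (3 counts of the group's total, counting error only). WNT3, WNT7A, WNT7B, WNT8B and RSPO2 had between 1 and 7 counts in total, and WIF1 had 10.

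Levels can be compared between genes only per unit of length, so they are given here as CPM per kilobase of gene (RPKM). FZD4, a Frizzled receptor, was the highest member in all 4 groups, at 214 ± 36.5 RPKM in visceral control and 188 ± 33.5 in subcutaneous control (SD, n = 4). Its share of the summed receptor level was 68.0% ± 2.57 in visceral control and 64.5% ± 3.45 in subcutaneous control. SFRP5, a secreted inhibitor, followed in control fat at 200 ± 47.6 RPKM in visceral and 74.9 ± 36.6 in subcutaneous fat. In visceral control the ranges of FZD4 (190 to 268) and SFRP5 (160 to 268 RPKM) overlapped, so those ranks cannot be told apart.

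The co-receptors LRP6 and LRP5 came next in visceral control at 36.0 ± 6.16 and 27.2 ± 2.67 RPKM, again with overlapping ranges. RSPO3 was the main R-spondin, at 19.8 ± 2.90 RPKM in visceral and 13.3 ± 3.22 in subcutaneous control, while its receptor LGR4 stood at 4.85 ± 0.348 RPKM in subcutaneous control. Among ligands WNT11 led in subcutaneous control (17.5 ± 6.24 RPKM, 33.2 to 60.01% of the ligand sum). WNT5A led in visceral control (9.94 ± 0.879 RPKM, 37.6% ± 4.29 of the sum). The inhibitors together summed to 229 ± 47.5 RPKM in visceral control, 162 ± 44.6 in visceral BPA, 114 ± 53.6 in subcutaneous control and 45.6 ± 14.5 in subcutaneous BPA, and SFRP5 alone made up 87.0% ± 3.19 of the first of these. Receptors summed to between 249 and 314 RPKM as group means, with overlapping ranges in the 4 groups.

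**Figure D1:**
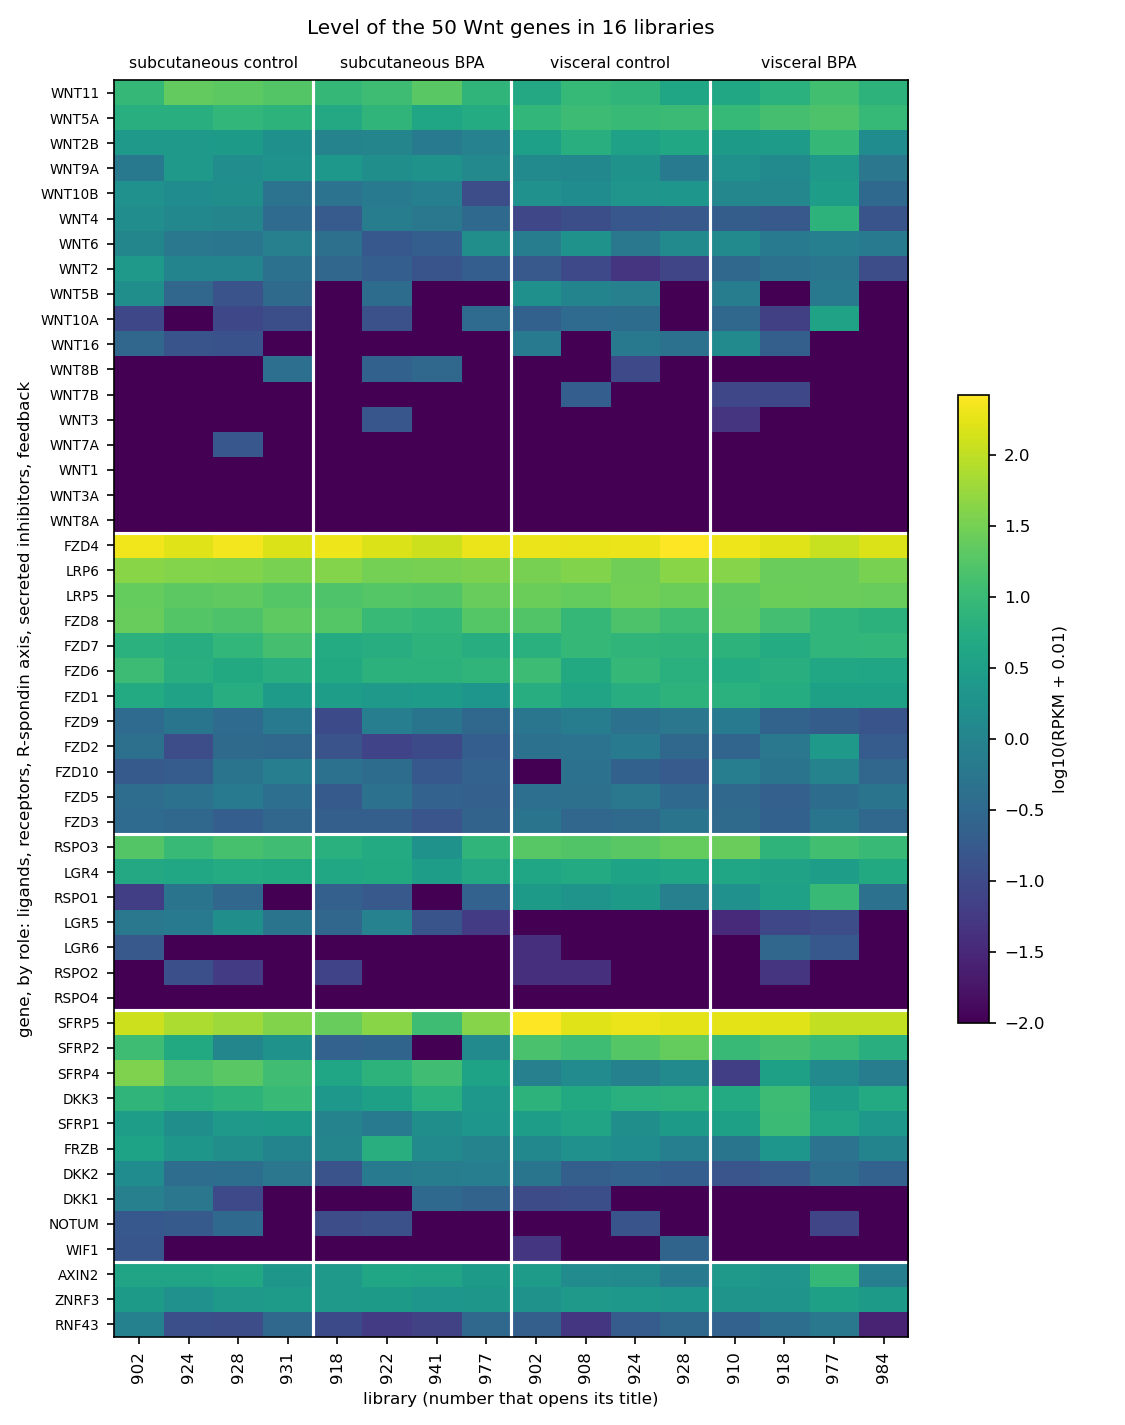
Heat map of log10(RPKM + 0.01) for the 50 genes (rows, by role and falling mean level) in the 16 libraries (columns, by group). FZD4, SFRP5, LRP6 and LRP5 are bright in every library, while WNT1, WNT3A, WNT8A and RSPO4 are at 0 throughout, and WNT4, WNT10A and FZD2 brighten in visceral BPA library 977 alone among visceral libraries.

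Visceral and subcutaneous fat of control ewes differed in 7 of the 31 members tested, against 13.3% of all 14456 genes tested (edgeR's quasi-likelihood test, Benjamini-Hochberg adjusted p under 0.05). SFRP4, LGR5, WNT4 and WNT11 were lower in visceral fat, where 6.16% of all genes were called lower. SFRP5, RSPO1 and WNT5A were higher, where 7.17% of all genes were called higher. None of the 11 receptors tested was called. Libraries did not overlap between depots for 5 tested members that were higher and 3 that were lower in visceral fat. The same held for 10.2% and 9.71% of all genes. The median log2 difference over the 31 members was 0.15, and over all genes -0.0069.

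SFRP4 is a secreted Frizzled-related protein. In control ewes it measured 73.6, 31.1, 38.9 and 23.3 CPM in subcutaneous libraries 902, 924, 928 and 931, against 1.69, 2.74, 1.72 and 2.52 in visceral libraries 902, 908, 924 and 928. The groups were far from overlapping. The log2 difference, visceral minus subcutaneous, was -4.25 ± 0.37 (SE; adjusted p = 0.000135), a 19.0-fold higher level in subcutaneous fat. Per length, SFRP4 was 18.1% ± 2.74 of the summed inhibitor level in subcutaneous control and 0.501% ± 0.207 in visceral control.

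SFRP5, another member of the SFRP family and known as an adipokine, went the other way. Its control levels were 211, 127, 101 and 65.7 CPM in subcutaneous libraries 902, 924, 928 and 931 and 452, 269, 330 and 298 CPM in visceral libraries 902, 908, 924 and 928. Every visceral value was above every subcutaneous one, and the log2 difference was 1.43 ± 0.30 (adjusted p = 0.0132). SFRP2, which also binds Wnt ligands, measured 10.1, 4.30, 0.940 and 1.64 CPM in the subcutaneous and 12.8, 10.1, 16.0 and 21.5 CPM in the visceral controls. The highest subcutaneous library (10.116 CPM) came just short of the lowest visceral one (10.123 CPM), and the log2 difference of 1.82 ± 0.55 just missed the threshold (adjusted p = 0.0507). In edgeR without subcutaneous control 902, and without both 902 and 924, SFRP2 was called higher in visceral fat. Where the title number was taken as the animal and used as a block, it was called, at 2.32 with adjusted p = 0.00732 in limma voom over all libraries and at 1.87 with adjusted p = 0.0399 in edgeR over the 3 control numbers found in both depots, and limma voom called it without the block too. SFRP1, at 11.8 ± 3.92 CPM in visceral and 10.4 ± 2.45 in subcutaneous control, had a log2 difference of 0.20 ± 0.28 (adjusted p = 0.684), with a 95% interval from -0.43 to 0.82.

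LGR5, an R-spondin receptor best known as a stem cell marker of the gut, had 0 counts in all 4 visceral controls. Subcutaneous controls 902, 924, 928 and 931 had 17, 17, 46 and 11 counts, or 2.65, 2.92, 7.21 and 2.25 CPM. Its pooled level was at least 64.6-fold higher in subcutaneous fat, taking 3 counts over the visceral group as the limit (adjusted p = 0.00207). RSPO1, one of the ligands of that receptor family, was at 0.156, 1.38, 0.784 and 0 CPM in the subcutaneous controls and 7.30, 5.58, 7.24 and 2.36 CPM in the visceral ones. The groups did not overlap, with a log2 difference of 3.22 ± 0.68 (adjusted p = 0.0129). RSPO3 measured 51.0, 29.6, 40.9 and 33.8 CPM in subcutaneous and 55.5, 48.6, 57.9 and 69.0 CPM in visceral controls. Subcutaneous library 902 reached into the visceral range, and the log2 difference of 0.58 ± 0.18 missed the threshold (adjusted p = 0.0580; 0.61 and adjusted p = 0.0386 with the number as a block in edgeR). Limma voom with the block did not call RSPO3. Without subcutaneous library 902 edgeR called RSPO3 higher in visceral fat.

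Among ligands, WNT4 measured 5.14, 4.13, 3.60 and 1.23 CPM in subcutaneous and 0.267, 0.378, 0.517 and 0.569 CPM in visceral controls. These groups did not overlap (log2 difference -2.98 ± 0.50, adjusted p = 0.00464). WNT11 was at 16.2, 42.5, 37.3 and 31.5 CPM in subcutaneous and 8.46, 16.6, 14.2 and 7.73 CPM in visceral controls. Library 902 of the subcutaneous group lay within the visceral range, and the log2 difference was -1.44 ± 0.33 (adjusted p = 0.0165). WNT5A rose less, from 27.1, 26.5, 37.5 and 31.1 to 37.8, 46.3, 43.4 and 45.4 CPM, a log2 difference of 0.51 ± 0.15 (adjusted p = 0.0491). WNT2B, another ligand, measured 5.29, 5.50, 5.80 and 3.68 CPM in subcutaneous and 7.04, 13.4, 7.67 and 10.2 CPM in visceral controls. Its groups did not overlap, yet the log2 difference of 0.92 ± 0.28 was not called (adjusted p = 0.0516).

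AXIN2, a scaffold of the β-catenin destruction complex that canonical signalling itself induces, measured 15.1, 14.8, 16.6 and 8.59 CPM in subcutaneous and 10.5, 5.30, 4.92 and 2.68 CPM in visceral controls. Its log2 difference of -1.24 ± 0.37 missed the threshold (adjusted p = 0.0511) and passed it with the number as a block in edgeR (-1.52, adjusted p = 0.0173). Unblocked edgeR called AXIN2 too when visceral control 902 or subcutaneous control 931 was left out. Limma voom with the block did not call AXIN2. ZNRF3 differed by -0.11 ± 0.19 (adjusted p = 0.744). Of the other fixed members, WNT10B (0.49 ± 0.38), LGR4 (-0.19 ± 0.15), FRZB (-0.75 ± 0.41; -1.12 and adjusted p = 0.0499 with the block in edgeR), DKK2 (-1.21 ± 0.55), DKK3 (-0.28 ± 0.20), FZD4 (0.20 ± 0.18), LRP5 (0.36 ± 0.13) and LRP6 (-0.11 ± 0.15) were not called. Limma voom with the block did not call FRZB.

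LGR5 and WNT4 passed the filter on low counts through their subcutaneous libraries alone and RSPO1 through its 4 visceral and 1 subcutaneous library, so for these genes a difference was built into being tested. The call of WNT5A was lost in 16 of 19 other fits, both blocked fits among them, with adjusted p up to 0.274. WNT4 was not called in 4 of 17 others: the edgeR fit of all 16 libraries (adjusted p = 0.0937), limma voom with the block (0.0549) and without (0.0909), and edgeR without subcutaneous controls 902 and 924 (0.0508). RSPO1 was not called in limma voom (adjusted p = 0.138 with the block and 0.183 without), nor WNT11 without visceral control 928 (0.0519). Cell type markers moved with depot in the same libraries. Of 7 mesothelial markers tested 6 were called higher in visceral fat. Of 9 progenitor and fibroblast markers 7 had estimates below 0 and 3 were called lower. All 7 adipocyte markers had estimates above 0 and 2 were called. Their sums overlapped, at 18853 to 27329 CPM in visceral and 9669.5 to 18948 in subcutaneous controls. All 6 endothelial markers were above 0 with 1 called, and the 1 skeletal muscle marker tested was called lower. Summed mesothelial markers were 59.7 to 131 CPM in visceral and 4.30 to 9.34 CPM in subcutaneous controls, where LRRN4 was at 0 in every library. Summed progenitor and fibroblast markers were 2293 to 3318 CPM in visceral and 4896 to 7541 CPM in subcutaneous controls. The part of these markers' cell types in the Wnt differences was not tested, and in whole tissue fewer cells of a type and less RNA per cell cannot be told apart.

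**Figure D2:**
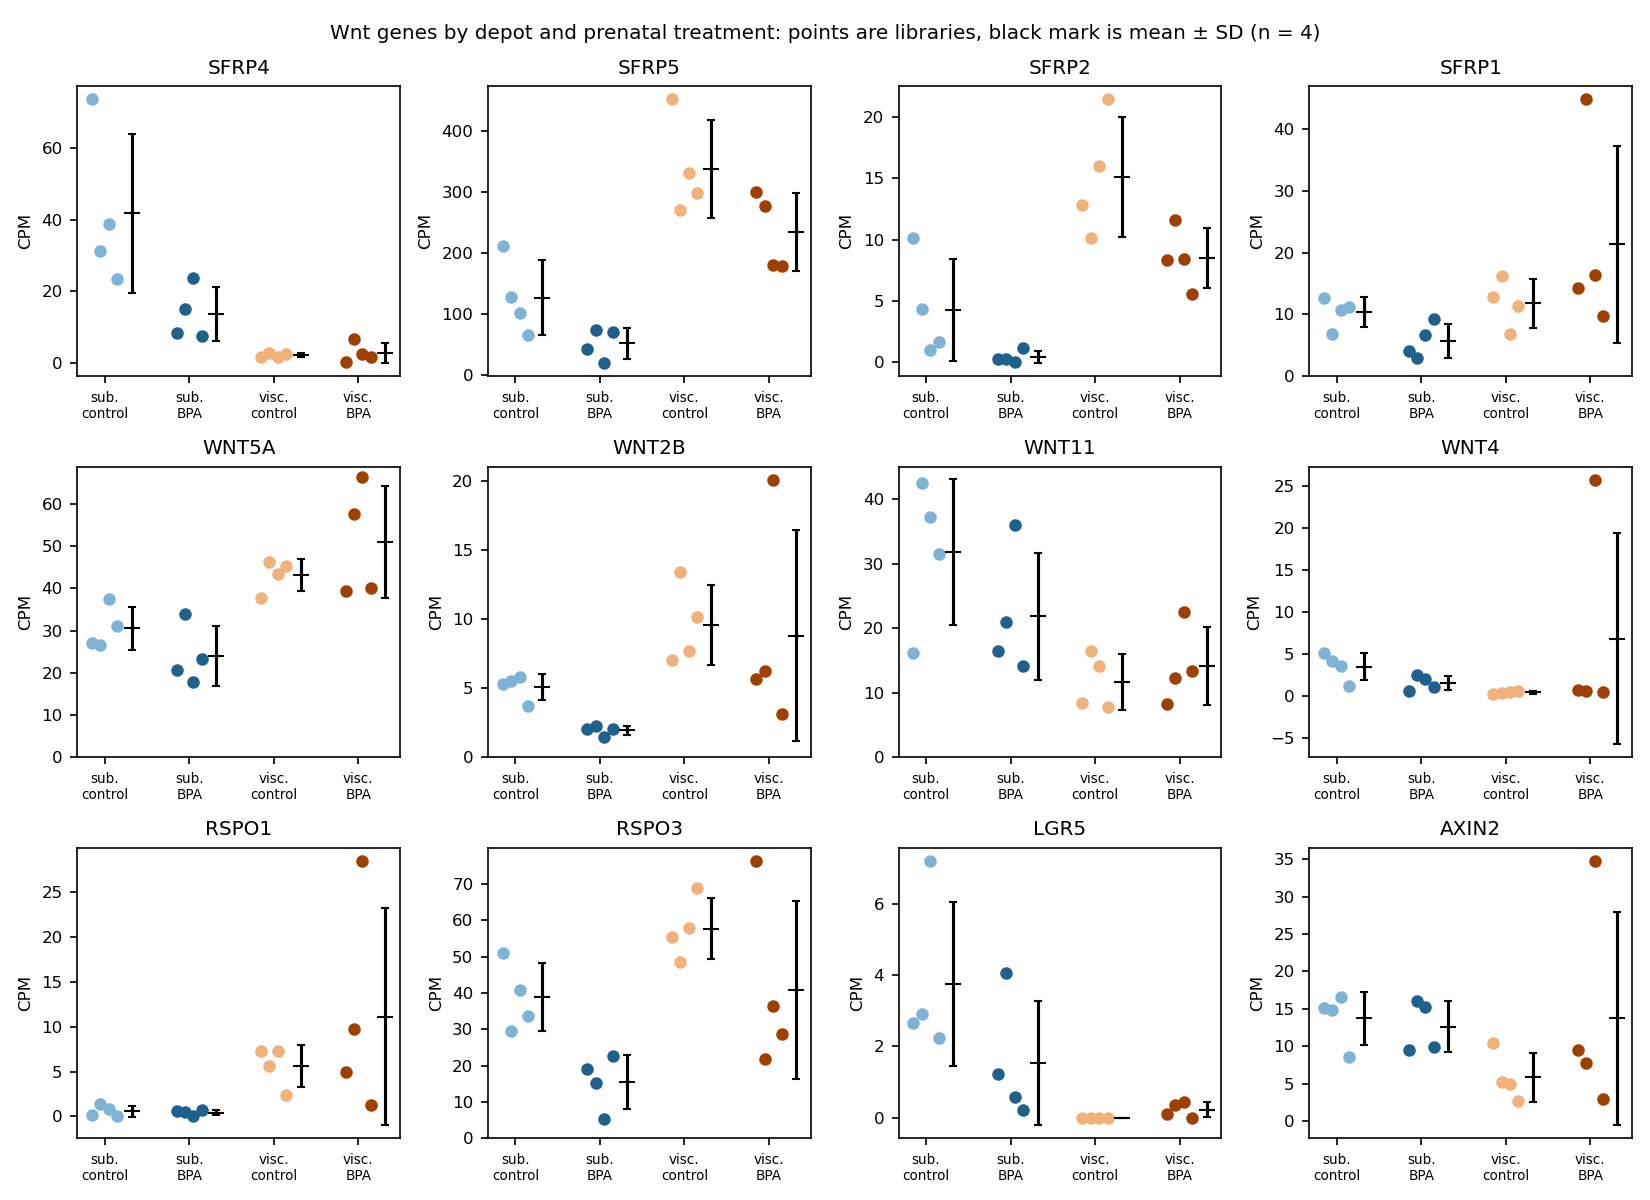
CPM of 12 Wnt genes (y axes, linear, one scale per panel) in the 4 groups (x axes). Points are libraries and the black mark is the mean ± SD (n = 4). SFRP4 and LGR5 sit high in subcutaneous control and near 0 in visceral fat, SFRP5 and SFRP2 sit higher in visceral fat, and 1 visceral BPA library carries the high values of WNT4, RSPO1 and AXIN2.

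In BPA ewes the depots were compared on 8 other libraries. There 5 of the 23 members tested were called, against 9.07% of all 13782 genes tested, and all 5 were higher in visceral fat: SFRP2, SFRP5, WNT5A, WNT2B and SFRP1. Of all genes tested, 5.13% were called higher and 3.94% lower. Without overlap between depots, 6 tested members were higher and 1 was lower, against 9.57% and 9.03% of all genes. The median log2 difference was 0.29 over the 23 members and 0.024 over all genes.

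SFRP2 was at 0.206, 0.226, 0 and 1.12 CPM in subcutaneous BPA libraries 918, 922, 941 and 977, and 8.36, 11.6, 8.38 and 5.57 CPM in visceral BPA libraries 910, 918, 977 and 984. The log2 difference was 4.33 ± 0.63 (adjusted p = 0.00492). It rests on 7 subcutaneous counts against 307 visceral ones, and the gene passed the filter through the visceral libraries alone. SFRP5 measured 41.6, 73.7, 18.8 and 70.4 CPM in subcutaneous and 300.1, 277, 180.5 and 178 CPM in visceral BPA libraries, with no overlap (2.19 ± 0.37, adjusted p = 0.00902). SFRP2 and SFRP5 were called in every fit that left out 1 BPA library, whereas the other 3 were not.

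WNT5A was at 20.6, 34.1, 17.9 and 23.3 CPM in subcutaneous and 39.5, 57.6, 66.3 and 40.2 CPM in visceral BPA libraries. The groups did not overlap, and the log2 difference was 1.08 ± 0.25 (adjusted p = 0.0255). Leaving out visceral 918 or subcutaneous 918, 941 or 977 ended that call, with adjusted p from 0.0585 to 0.0744, as did leaving out both libraries numbered 977 (0.0615). WNT2B measured 2.06, 2.26, 1.47 and 2.02 CPM in subcutaneous and 5.69, 6.26, 20.1 and 3.16 CPM in visceral BPA libraries. Library 977 held the highest of these, and the log2 difference was 2.14 ± 0.58 (adjusted p = 0.0434). Without visceral 977 alone WNT2B was still called. Without both libraries numbered 977 its difference was 1.36 (adjusted p = 0.0841), and without visceral 918 the adjusted p was 0.0604.

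SFRP1 measured 4.12, 2.93, 6.74 and 9.20 CPM in subcutaneous and 14.3, 44.9, 16.5 and 9.71 CPM in visceral BPA libraries, a log2 difference of 1.89 ± 0.51 (adjusted p = 0.0444). Its highest value was in visceral library 918, which also had the highest sum of 6 smooth muscle markers, 3496.5 CPM, against 561 to 1023 in the other 3 visceral BPA libraries. Without that library the SFRP1 difference was 1.23 (adjusted p = 0.0979), and the part of smooth muscle in it was not tested. WNT2B and SFRP1 were each also not called without visceral 910 or without subcutaneous 918, 922, 941 or 977, with adjusted p from 0.0531 to 0.1315.

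SFRP4 was lower in visceral fat of BPA ewes too, at 0.112, 6.60, 2.54 and 1.51 CPM against 8.24, 14.9, 23.7 and 7.40 CPM, with no overlap. Its log2 difference of -2.33 ± 0.75 did not pass the threshold (adjusted p = 0.0749), but did in limma voom with the number as a block (-2.81, adjusted p = 0.0258) and without it. The 23 members tested in both depot comparisons had the same sign in 17, or 73.9%, against 75.2% of the 13657 genes tested in both. SFRP5 and WNT5A were the members called in both. LGR5, WNT4 and RSPO1 did not pass the count filter in BPA ewes. LGR5 had 7 visceral and 27 subcutaneous counts there, and RSPO1 337 visceral and 8 subcutaneous counts. WNT4 had 189 visceral and 26 subcutaneous counts there, the opposite order to control ewes, but 172 of the 189 were in library 977. Its medians, 0.619 CPM in visceral and 1.59 CPM in subcutaneous BPA libraries, kept the order of control ewes.

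The other fixed members tested in BPA ewes were not called: RSPO3 (1.38 ± 0.45), WNT10B (1.44 ± 0.74), DKK3 (0.73 ± 0.44), LRP5 (0.40 ± 0.17), AXIN2 (0.11 ± 0.60), FZD4 (-0.10 ± 0.23), LRP6 (-0.12 ± 0.19), LGR4 (-0.16 ± 0.22), WNT11 (-0.63 ± 0.36) and FRZB (-1.20 ± 0.69). Without visceral library 977 the AXIN2 difference was -0.92 (adjusted p = 0.133) and that of FZD4 0.031. Markers of other cell types moved between these libraries too. Of 3 mesothelial markers tested 2 were called higher in visceral fat, with a sum over 9 markers of 31.6 to 343 CPM against 1.85 to 5.61 in subcutaneous fat, where LRRN4 was at 0. Of 6 macrophage markers 3 were called higher (sum 224 to 333 against 154 to 226 CPM). Of 9 progenitor and fibroblast markers 1 was called lower, with overlapping sums (1511 to 5041 against 2694 to 5024 CPM). Their part in the Wnt differences was not tested.

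**Figure D3:**
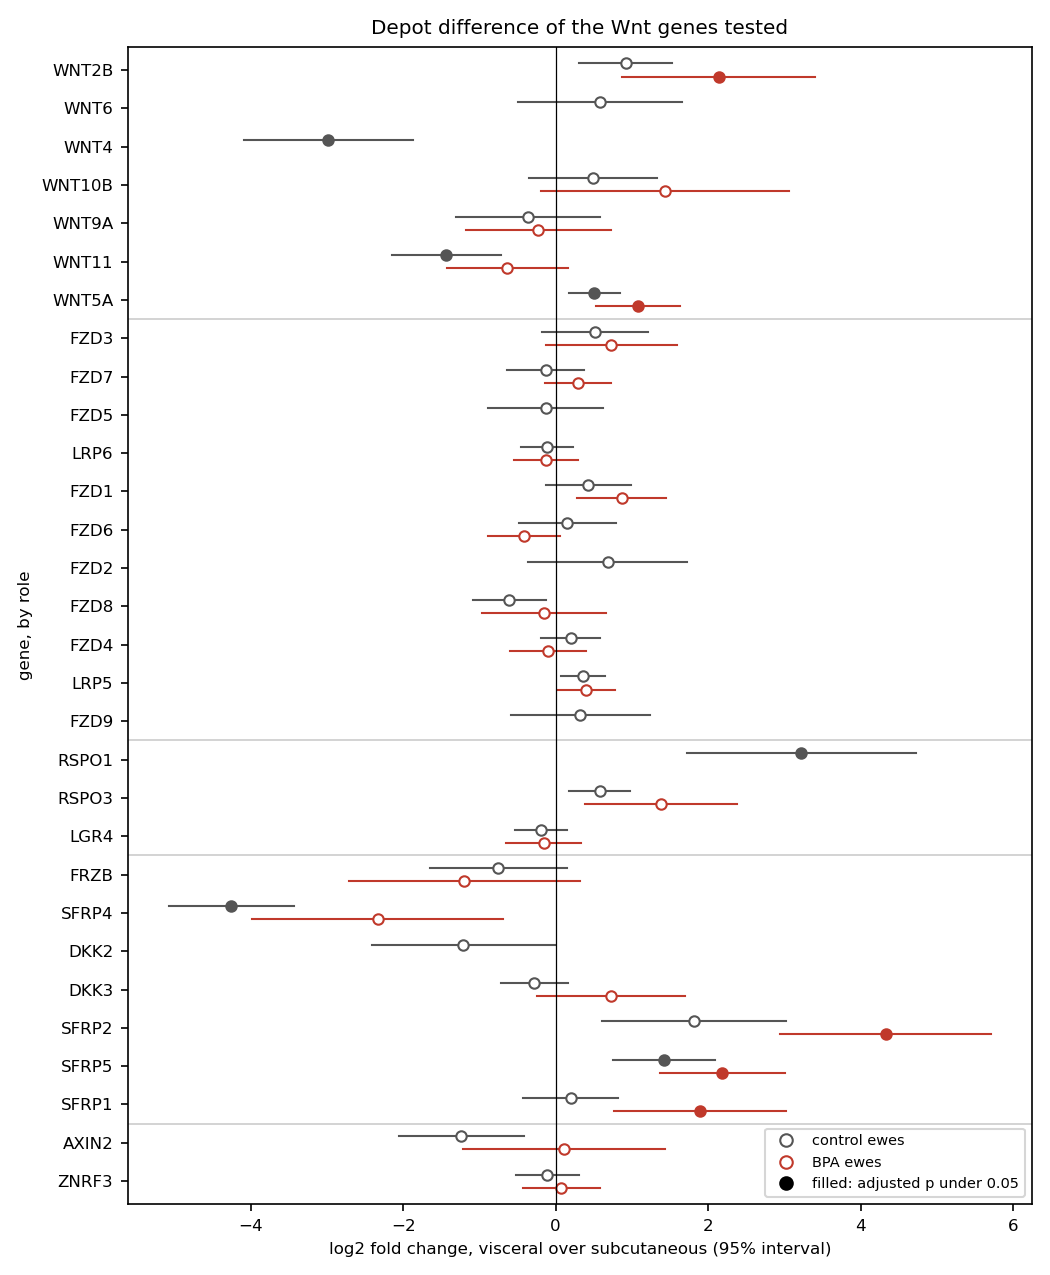
Log2 fold change of visceral over subcutaneous fat with its 95% interval (x axis) for the members tested (y axis, by role), in control ewes (grey) and BPA ewes (red), with filled points for adjusted p under 0.05. LGR5 is left out because it had 0 counts in visceral control. The filled points lie among ligands, RSPO1 and secreted inhibitors, and none lies among the receptors.

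Library 977 of visceral BPA carried the highest level of several members at once. WNT4 was at 25.7 CPM in it and at 0.669, 0.569 and 0.452 CPM in libraries 910, 918 and 984. RSPO1 was at 28.4 CPM against 4.91, 9.79 and 1.28, and AXIN2 at 34.7 CPM against 9.48, 7.74 and 3.01. WNT10A, a ligand tested in no comparison, had 46 of its 79 counts in this library (6.88 CPM, against 0 to 0.690 in the other 15). The same library had the most mesothelial marker RNA, and library 984 had both the least mesothelial marker RNA (31.6 CPM) and the lowest visceral RSPO1. WNT4 did not follow the markers among the other 7 visceral libraries, where it stayed between 0.267 and 0.669 CPM while the marker sum ran from 31.6 to 131 CPM. Among visceral libraries 977 also had the highest sums of progenitor and fibroblast (5041 CPM) and lymphocyte markers (188 CPM). The first of these sums was mostly COL1A1 (2468 CPM) and COL3A1 (1867 CPM). DCN, LUM, PI16 and CD34, markers of the same list, were at their lowest visceral values in library 977. Its sums of adipocyte (13177 CPM) and nerve markers (180 CPM) were the lowest visceral ones. The nerve sum was mostly S100B (158 CPM), while NGFR of the same list was at its highest visceral value (15.6 CPM). It had the lowest visceral total, 6.77 M counts, and the largest visceral share of counts in genes shorter than 200 bases, 1.13%. Whether mesothelial cells or any of these other traits account for the values of library 977 was not tested.

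**Figure D4:**
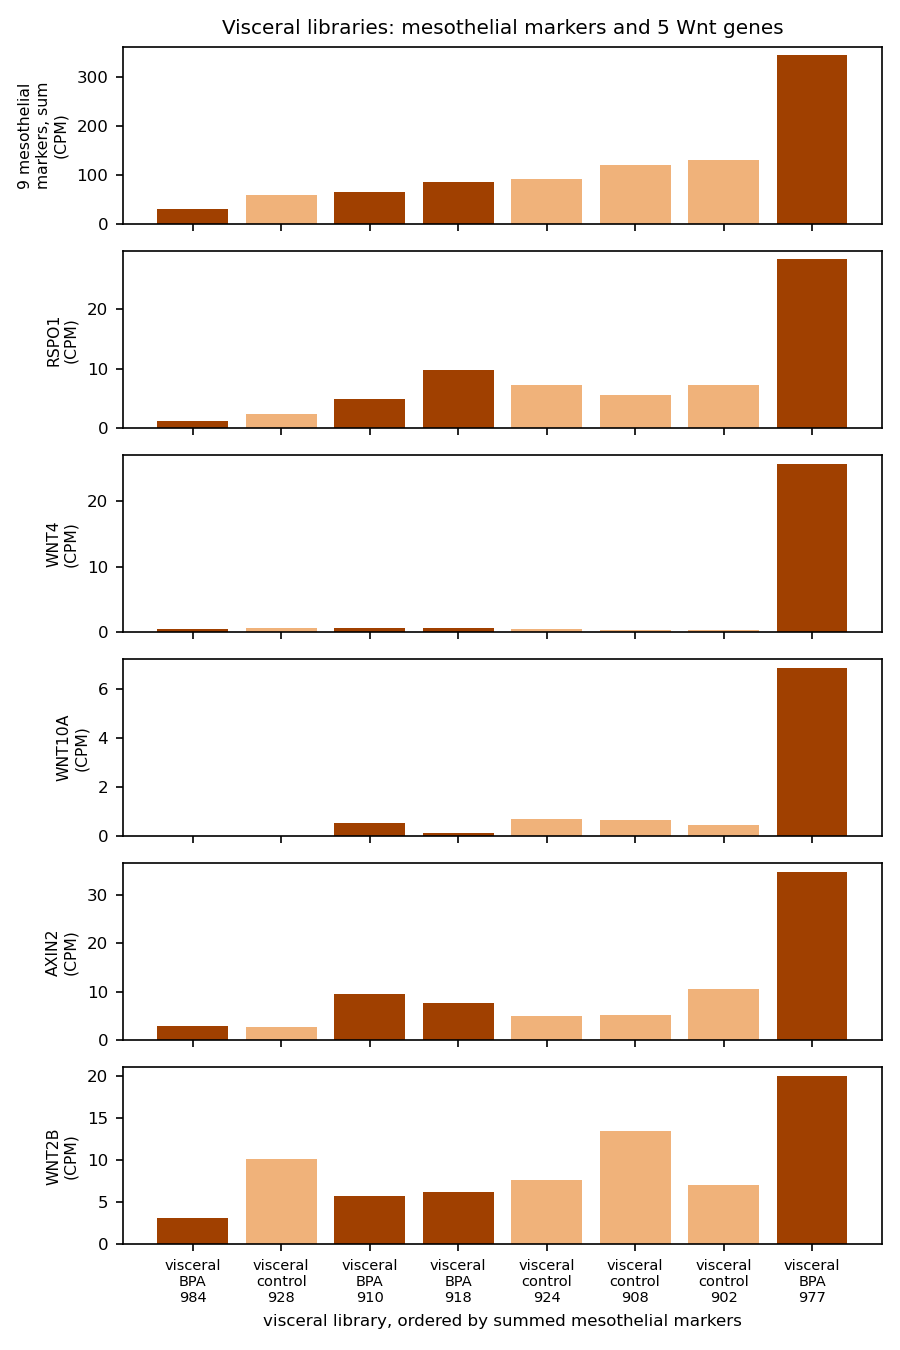
CPM (y axes, from 0) of 9 summed mesothelial markers and of RSPO1, WNT4, WNT10A, AXIN2 and WNT2B in the 8 visceral libraries (x axis, ordered by the marker sum, control in light and BPA in dark orange). Library 977 is highest in all 6 panels, and the other 7 libraries stay below 1 CPM for WNT4 and WNT10A.

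In subcutaneous fat, BPA against control gave 0 called members of 25 tested, against 0.709% of all 13535 genes tested, with edgeR. At an unadjusted p under 0.05 there were 8 members, all lower with BPA, where 14.2% of all genes passed. DESeq2 called 5 members lower (WNT2B, RSPO3, SFRP4, SFRP5 and DKK3), where it called 3.43% of all genes in either direction. Estimates were below 0 for 23 of the 25 members, against 50.8% of all genes, with a median log2 difference of -0.49 against -0.0057 over all genes. These were the members that passed the filter, and WNT2B, FZD5 and LGR5 passed it through all 4 control libraries and 1 BPA library. With no filter, 40 of 45 members with a count were below 0, against 52.4% of all genes. Without subcutaneous controls 902 and 924, 21 of 25 were below 0, the median was -0.50 and edgeR called 0 members.

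WNT2B came closest. The 4 BPA values given above, 1.95 ± 0.339 CPM, lay below all 4 control values, 5.07 ± 0.947 CPM, and the log2 difference was -1.36 ± 0.31 (adjusted p = 0.0879). RSPO3 measured 19.2, 15.1, 5.27 and 22.7 CPM in BPA libraries 918, 922, 941 and 977, all below the lowest control at 29.6 CPM (-1.30 ± 0.33, adjusted p = 0.119). These 2 genes were the tested members without overlap between groups, where 3.16% of all genes were lower and 4.26% higher without overlap. WNT2, not tested, did not overlap either, at 0.293 to 0.618 CPM with BPA and 1.02 to 5.45 CPM in controls (8 and 67 counts).

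The inhibitors SFRP4 and SFRP5 had log2 differences of -1.64 ± 0.42 (adjusted p = 0.125) and -1.30 ± 0.42 (adjusted p = 0.206). BPA library 941 overlapped the controls in SFRP4 at 23.7 CPM, and libraries 922 and 977 did so in SFRP5. Over 18 other fits the difference ranged from -2.03 to -1.21 for SFRP4 and from -1.52 to -0.69 for SFRP5. DKK3, a divergent Dickkopf family member, measured 5.97, 8.57, 16.7 and 5.83 CPM with BPA and 20.5, 14.96, 18.6 and 25.4 CPM in controls. Library 941 alone entered the control range (-1.11 ± 0.33, adjusted p = 0.179), and without it DKK3 was called (adjusted p = 0.0442). SFRP1 (-0.85 ± 0.35), the receptor FZD1 (-0.72 ± 0.24) and WNT4 (-1.19 ± 0.53) were the remaining members at an unadjusted p under 0.05. SFRP2, with 7 counts in BPA and 104 in control libraries, was not tested. Its levels were 0.388 ± 0.499 and 4.25 ± 4.17 CPM.

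The most abundant receptors had small estimates with narrow intervals. FZD4 differed by -0.13 ± 0.20 (95% interval -0.57 to 0.30), LRP6 by -0.16 ± 0.14 (-0.45 to 0.14) and LRP5 by -0.16 ± 0.16 (-0.52 to 0.20). AXIN2, the feedback target, measured 9.48, 16.0, 15.2 and 9.87 CPM with BPA, across the control range (-0.13 ± 0.27, interval -0.72 to 0.46). WNT5A (-0.34 ± 0.21), WNT11 (-0.55 ± 0.34), LGR4 (-0.17 ± 0.18), FRZB (0.12 ± 0.62) and DKK2 (-0.26 ± 0.59) were not called either. FRZB was highest in BPA library 922, and without it the difference was -0.97. DKK2 was lowest in BPA library 918, and without it the difference was 0.10. Summed over the 10 inhibitors per length, the 4 BPA libraries lay between 33.4 and 62.3 RPKM. The 4 controls lay between 66.6 and 190.4 RPKM, with library 902 highest. These sums were not tested and were not set against sums of other genes. SFRP5 made up most of them, on average 64.97% in subcutaneous control and 63.98% in subcutaneous BPA. As given above, SFRP5 itself overlapped between the groups and was not called.

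Other cell markers moved in the same libraries. All 9 progenitor and fibroblast markers had estimates below 0 with BPA, 1 of them called, and their sum was 2694 to 5024 CPM against 4896 to 7541 in controls. All 6 macrophage markers tested were below 0, 1 of them called, at 154 to 226 CPM against 267 to 356. All 3 lymphocyte markers tested were below 0 and none was called (44.0 to 98.2 against 79.1 to 233 CPM, summed over 7 markers). Smooth muscle markers went the other way, with all 6 estimates above 0 and 1 called, at 487 to 823 CPM against 320 to 401. The sum of 5 skeletal muscle markers was 42.0 to 339 CPM against 28.8 to 72.1, and the 1 tested was above 0 and not called. Genes shorter than 200 bases took 0.676 to 1.33% of counts with BPA and 0.355 to 0.459% in controls. The part of these shifts in the Wnt values was not tested.

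In visceral fat, BPA against control gave 0 called members of 30 tested, and 0% of all 14774 genes tested were called by edgeR (DESeq2 called 0 members and 5 genes). The 3 members at an unadjusted p under 0.05, where 7.47% of all genes passed, were lower with BPA: SFRP2 by a log2 difference of -0.84 ± 0.30, FZD6 by -0.62 ± 0.26 and SFRP5 by -0.53 ± 0.23, each with adjusted p = 0.658. All 30 overlapped between groups, while 2.08% of all genes were higher and 1.95% lower without overlap. Estimates were below 0 for 20 of the 30 members, against 49.7% of all genes, and the median log2 difference was -0.14 against 0.0019. No cell type marker was called here. All 6 smooth muscle markers had estimates above 0, with overlapping sums of 561 to 3496.5 CPM with BPA and 236 to 1010 in controls. Of 7 adipocyte markers 5 were below 0. Genes shorter than 200 bases took 0.277 to 1.13% of counts with BPA and 0.253 to 0.416% in controls. The part of these shifts in the Wnt values was not tested.

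Some members had 1 high BPA library. AXIN2 differed by 1.22 ± 0.66 (interval -0.24 to 2.68) and RSPO1 by 0.97 ± 0.73 (-0.64 to 2.58), both with library 977 highest. Without that library AXIN2 differed by 0.19 and RSPO1 by -0.10. SFRP1 differed by 0.85 ± 0.45, with library 918 highest, and by 0.19 without it. RSPO3 measured 76.4, 21.7, 36.4 and 28.8 CPM with BPA, on either side of the control range of 48.6 to 69.0 CPM (-0.50 ± 0.34, adjusted p = 0.696). FZD4 differed by -0.42 ± 0.20 (-0.87 to 0.02), LRP5 by -0.11 ± 0.13 and LRP6 by -0.16 ± 0.20. WNT5A (0.24 ± 0.19), WNT11 (0.27 ± 0.35), WNT2B (-0.14 ± 0.50), WNT10B (-0.45 ± 0.55), SFRP4 (0.30 ± 0.76), FRZB (-0.32 ± 0.50), DKK3 (-0.09 ± 0.34) and LGR4 (-0.14 ± 0.20) were not called. Without library 977 the differences were -0.95 for WNT2B, -0.059 for WNT11 and 0.11 for DKK3, and without library 918 they were -0.66 for SFRP4 and -0.53 for DKK3.

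**Figure D5:**
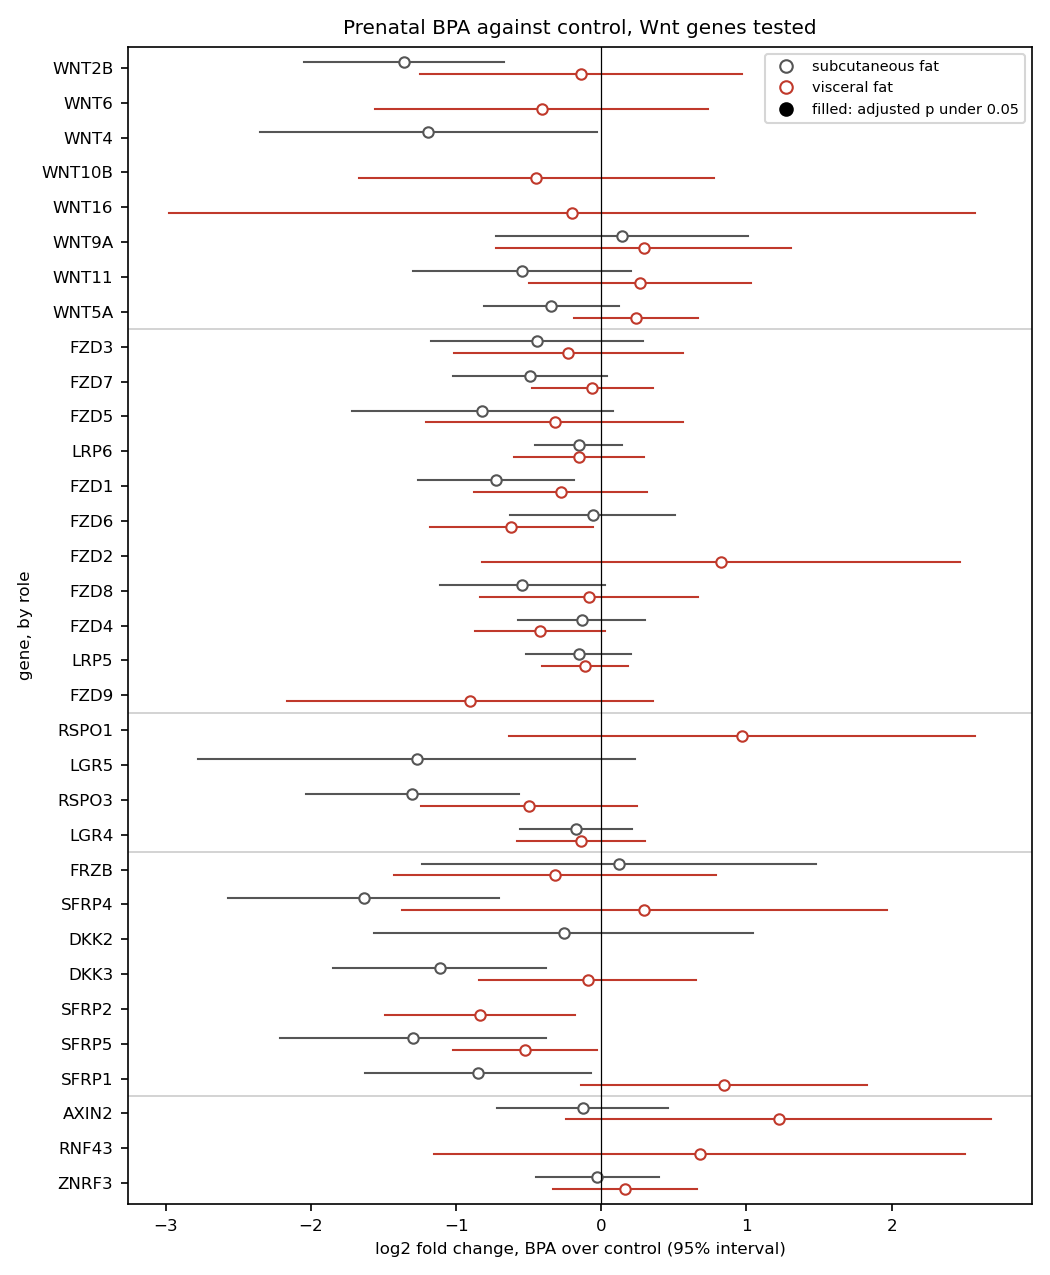
Log2 fold change of BPA over control with its 95% interval (x axis) for the members tested (y axis, by role), in subcutaneous (grey) and visceral fat (red). No point is filled, because no member reached an adjusted p under 0.05. Of the grey points 23 of 25 lie below 0, and of the red points 20 of 30.

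Whether the BPA effect differed between depots was tested over all 16 libraries, as the visceral minus the subcutaneous effect. No member of 31 tested was called, and 0% of all 14793 genes tested were called by edgeR (DESeq2 called 0 members and 11 genes). At an unadjusted p under 0.05, where 6.20% of all genes passed, were WNT4, LGR5, SFRP1 (1.71 ± 0.62), SFRP2 (2.52 ± 0.97) and SFRP4 (1.93 ± 0.85), with adjusted p from 0.649 to 0.774. WNT4 rests on library 977, without which its difference was 1.53 with adjusted p = 1, and LGR5 on a visceral control group at 0. Without subcutaneous controls 902 and 924 the SFRP2 difference was 0.77. Without visceral BPA library 918 the difference was 1.04 for SFRP1 and 0.95 for SFRP4. The other 15 fixed members tested had differences from -0.44 (FRZB) to 1.34 (AXIN2), with adjusted p from 0.835 to 0.9999. Estimates were above 0 for 26 of the 31, against 51.9% of all genes. A BPA effect that differs between depots was thus not shown for any member.

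Of 77 other genes of the pathway, from secretion factors to nuclear partners and known targets, 73 were in the table. BPA against control called 0 of 68 tested in each depot with edgeR (11 in subcutaneous and 5 in visceral fat at an unadjusted p under 0.05), with CCND1, the cell cycle gene for cyclin D1, closest in subcutaneous fat (51.9 ± 14.4 in control and 25.7 ± 6.01 CPM with BPA; log2 difference -1.02 ± 0.23, adjusted p = 0.0822). WLS, which carries Wnt ligands to the cell surface, had an adjusted p of 0.0975. Between depots of control ewes, 8 of 70 were called higher in visceral fat and 10 lower, where 7.17% and 6.16% of all genes were. The smallest p-values were those of GPC3, a surface proteoglycan that binds Wnt (106 in visceral and 363 CPM in subcutaneous fat; -1.77 ± 0.20, adjusted p = 0.000582), and SP5, a direct β-catenin target (0.0654 ± 0.0828 and 3.39 ± 1.44 CPM, adjusted p = 0.00134). SP5 had 3 visceral and 80 subcutaneous counts and passed the filter through its 4 subcutaneous libraries alone, so a difference was built into its being tested. They were followed by APC of the destruction complex (0.74 ± 0.12), the adipocyte regulator PPARG (0.94 ± 0.17), APCDD1, a membrane inhibitor of Wnt (-1.74 ± 0.31), and CCN4, a matricellular Wnt target (-2.31 ± 0.45).

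In BPA ewes, 6 of 66 were called higher in visceral fat and 4 lower, where 5.13% and 3.94% of all genes were. GPC3 (-1.85 ± 0.19, adjusted p = 0.00101) and APCDD1 (-2.34 ± 0.33) were again lower, and IGFBP4 (1.38 ± 0.20), CCND1 (1.23 ± 0.21), the Dishevelled antagonist NKD1 (3.50 ± 0.72) and CELSR2 (1.13 ± 0.24) were higher. For a difference of the BPA effect between depots edgeR called 0 of 69, with 5 at an unadjusted p under 0.05.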

How the data were processed

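RNA of 16 libraries was sequenced after ribosomal depletion with a low-input kit, per the labels' protocols. Per the submitters' processing notes, FastQC 0.11.5, MultiQC 0.9, STAR 2.6.0c and featureCounts of Subread 1.6.1 were used. The build behind the counts, the annotation and any use of strand were not given in the sources used here. The deposited table holds a read count per gene and library. Its name calls them normalized, but all are whole numbers and the totals differ from 3046126 to 14305764, so they were treated as raw counts. The deposited gene length gave RPKM. All 50 symbols occur as protein-coding genes in the ARS-UI_Ramb_v3.0 RefSeq table, which was used for names only. Where an annotated exon of a member overlaps a gene on the other strand, that gene had at most 29 counts in a library.

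Each comparison was fitted on all genes of its 8 libraries (16 for the difference of effects) with edgeR 4.0.16 in R 4.3.3: filterByExpr defaults (10 counts at the median depth, 15 in total), TMM, quasi-likelihood test, two-sided, Benjamini-Hochberg adjustment, called under 0.05. The scripts were tested on simulated data. Printed CPM and RPKM use TMM over all 16 libraries. SE was derived from the estimate and F. Alternatives were DESeq2 1.42.0, its size factors, other filters, thinning, a fit of all libraries, a threshold of 0.10, limma 3.58.1 voom, blocks and omitted libraries.

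Members, lists and tests were chosen with earlier results of these data known. Named genes were all members called in a comparison plus 20 fixed members where tested, and up to 6 called genes of the pathway list per comparison; other genes named were chosen after their values were seen. Title numbers were checked as animals by the correlation of deviations from group means. It was 0.287, 0.40 and 0.332 for the 3 control numbers in both depots, each its own best match, so they count as pairs. For BPA numbers 918 and 977 the values were 0.167 and 0.0313. Number 918 was also its own best match, but 977 was not. Pairing was thus not established for the BPA numbers as a set.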

Additional observations from a re-analysis of the deposited data

Results flagged for a closer look

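In groups of 4 libraries, 11 of 139 combinations of member and group with at least 10 counts had a highest or lowest library far from the other 3. This was judged by Dixon's criterion (a gap to the nearest library, as a share of the range, over the 95% critical value). Chance flags about 1 in 20 where values are normally distributed. The values here were CPM without a log, some from few counts, so the 11 flags cannot be set against that rate. High values were WNT4 in visceral BPA replicate 977 (25.7 CPM, others 0.452 to 0.669), FRZB in subcutaneous BPA replicate 922 (17.1 CPM, others 2.69 to 3.81) and LGR5 in subcutaneous control replicate 928 (7.21 CPM, others 2.25 to 2.92). WNT10A stood at 6.88 CPM in visceral BPA replicate 977 (others 0 to 0.557), and WNT5B at 2.02 CPM in subcutaneous control replicate 902 (others 0.157 to 0.409). WNT16 stood at 4.79 CPM in visceral BPA replicate 910 (others 0 to 0.797), and RNF43 at 1.35 CPM in subcutaneous BPA replicate 977 (others 0.226 to 0.412). DKK2 was high in visceral control replicate 902 (1.69 CPM, others 0.651 to 0.776), as was FZD4 in visceral control replicate 928 (1817 CPM, others 1285 to 1363). Low values were DKK2 in subcutaneous BPA replicate 918 (0.412 CPM, others 2.25 to 2.47) and LGR4 in subcutaneous BPA replicate 941 (15.5 CPM, others 24.5 to 26.2). Visceral BPA replicate 977 stood out for 2 members and each of the other 9 libraries named for 1.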

How the results depend on the processing

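In subcutaneous fat the count of members called for BPA was 0, but 5 with DESeq2 and 1 at a threshold of 0.10, and 0 to 1 when 1 library was left out. In visceral fat and for the difference of effects it was 0 in every fit. Between depots of control ewes 7 members were called, but 11 with DESeq2, 4 after thinning to the lowest total, 13 at a threshold of 0.10, and 6 to 9 with 1 library left out. In BPA ewes it was 5, but 8 with DESeq2, 10 in the edgeR fit of all 16 libraries, 8 at a threshold of 0.10, 3 without both libraries numbered 977 and 2 to 6 with 1 library left out. The cause of these moves was not tested.

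With the replicate block, limma voom (consensus correlation 0.235) called 0, 0, 5, 5 and 0 members for BPA in subcutaneous fat, BPA in visceral fat, depot in control ewes, depot in BPA ewes and the difference of effects. Without the block it called 0, 0, 5, 4 and 0. In edgeR on numbers found in both depots, the fit with the block gave 11 members in control and 6 in BPA ewes, with 2615 of 14707 and 921 of 14089 genes called in all. Besides the values given beside the genes, WNT5A in control ewes was not called in either blocked fit (adjusted p = 0.0656 in voom and 0.0547 in edgeR), nor WNT2B in BPA ewes in voom with the block (0.0808). Voom without the block did not call them either (0.109 and 0.141). The blocked edgeR fit also left out libraries, so neither these losses nor the calls it gained can be put down to the block.

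Some members that were not called changed direction. For BPA in subcutaneous fat FRZB was at -0.30 and -0.22 in voom with and without the block and from -0.97 to 0.55 with 1 library left out, and DKK2 at 0.27 without controls 902 and 924 and from -0.46 to 0.37 with 1 left out. For BPA in visceral fat, thinning gave 0.088 for WNT2B and 0.13 for WNT10B, and voom gave -0.40 with and -0.61 without the block for SFRP4. Leaving out 1 visceral library gave from -0.10 to 1.35 for RSPO1, from -0.95 to 0.14 for WNT2B, from -0.66 to 0.70 for SFRP4, from -0.53 to 0.11 for DKK3 and from -0.059 to 0.48 for WNT11. Between depots of BPA ewes AXIN2 was at -0.40 and -0.59 in voom with and without the block, at -1.02 without both 977 libraries and from -0.92 to 0.45 with 1 left out. FZD4 was at 0.11 without both and from -0.26 to 0.031 with 1 left out, and blocked edgeR gave 0.14 for FRZB and 0.13 for WNT11.

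Over all genes, counts of calls moved more: 96 for BPA in subcutaneous fat (0 without controls 902 and 924, 464 with DESeq2), 1928 for depot in control ewes (1043 without visceral control 928, 3062 at 0.10) and 1250 in BPA ewes (369 without subcutaneous BPA 922, 2408 in the fit of all libraries). Omissions of 902 and 924 and of both 977 libraries were chosen after seeing the data. Counts limit what can be said of the 17 untested members, 4 of them at 0 in all 16 libraries.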

Other observations

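WNT2, a canonical ligand that did not pass the filter on low counts in control ewes, had 35, 13, 14 and 5 counts in subcutaneous controls 902, 924, 928 and 931 and 4, 2, 1 and 2 counts in visceral controls 902, 908, 924 and 928 (2.73 ± 1.90 against 0.199 ± 0.114 CPM, SD, n = 4). It was called lower in visceral fat of control ewes in the edgeR fit with no filter and in each of the 8 fits that left out 1 control library, where fewer libraries are needed to pass the filter. It passed there through subcutaneous libraries alone, so a difference was built into its being tested. In BPA ewes WNT2 had 8 counts in subcutaneous libraries (0.453 ± 0.133 CPM) and 26 in visceral ones (0.779 ± 0.429 CPM), the opposite order of means. WNT16 had 0 counts in all 4 subcutaneous BPA libraries and 50 in visceral BPA libraries, an at least 6.94-fold higher CPM taking 3 counts over the group as the limit, but 43 of the 50 were in library 910.

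WNT5B had 48 counts in visceral controls, of which 0 were in library 928. FZD10, the receptor tested in no comparison, had 85 counts spread over 15 of the 16 libraries. WNT6 and WNT10A lie 7.617 kb apart on the same strand in the table's own coordinates, and WNT10A had 6.88 CPM in visceral BPA library 977, as given above. WNT6 was at 1.20 CPM in that library, within the visceral control range of 0.862 to 2.74 CPM.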
